A study of Homo sapiens with 8 samples.

Results

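The genes described here are DDIT4, CCNG2, TXNIP and ARRDC3, 4 genes grouped as induced when growth-factor or nutrient signals are lost. TXNIP is also transcribed when glucose metabolites accumulate, so no single direction is expected of it. They were taken by gene symbol from the platform annotation, with every probe. This gave 4 of 14884 named genes and 5 of 16098 named probes, since TXNIP has 2 probes and the other genes have 1 each. The genes were chosen with their changes under both compounds already known. Their changes under the compounds are therefore given as a description, with a standard error and no test. Their levels were also compared between the pairs of DMSO arrays, with a test, a comparison not itself used for the choice. Both pairs served as controls in the comparisons that were used, so this test is not independent of the choice.

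All arrays were of THP-1, a human acute monocytic leukaemia line, grown in serum-supplemented RPMI medium and taken 5 h after treatment. The IPA-3 group (2 arrays) had received IPA-3 at 6 µg/mL, an allosteric inhibitor of the p21-activated kinases (PAKs). The FRAX-597 group (2 arrays) had received FRAX-597 at 2 µg/mL, a PAK inhibitor that competes with ATP. The 4 DMSO arrays carried the solvent alone. A single line was used, and the labels do not say whether arrays of a group came from separate cultures, so p-values and errors measure no more than array-to-array spread, possibly of technical origin. The series asks what blocking PAK1 does in myeloid leukaemia cells.

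Each of these genes sits on a route by which cells slow growth. DDIT4, also called REDD1, acts through the TSC complex to switch off the growth kinase mTORC1, and is induced by ATF4, hypoxia, glucocorticoids and energy stress. CCNG2 encodes cyclin G2, an unconventional cyclin that restrains the cell cycle and is a textbook target of the forkhead factors FOXO1 and FOXO3, which enter the nucleus when PI3K and AKT are inactive. TXNIP and ARRDC3 are alpha-arrestins, adaptors that bring ubiquitin ligases to membrane proteins. TXNIP binds thioredoxin, drives internalisation of glucose transporters, and is transcribed by MondoA with its partner MLX when glucose metabolites accumulate. ARRDC3 directs the internalisation of beta-adrenergic receptors and integrin beta 4, and its close relative ARRDC4 is another MondoA target.

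The 8 arrays lay on 2 scales. The median over all probes was 5.51 to 5.55 in DMSO 1, DMSO 2 and both IPA-3 arrays, called the first set, and 6.00 to 6.05 in DMSO 3, DMSO 4 and both FRAX-597 arrays, called the second set. The sets carry no label. Each compound was therefore compared with the pair of DMSO arrays in its set, and its change is a difference of mean log2 values, 2 arrays against 2. Of 12 measured monocyte and myeloid markers, 7 lay above the 75th percentile of all probes in every array, among them LYZ, SPI1, CSF1R and CD68. Markers of other cell types above that percentile in every array numbered 0 of 6 for T cells, 0 of 3 for B cells, 0 of 2 for fibroblasts, 0 of 1 for erythroid cells and 1 of 7 for epithelium (KRT18). Those below the median in every array numbered 2, 0, 2, 0 and 3 in the same order.

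The promoters show which known control letters stand at each gene's start. They are RefSeq sequences of GRCh38.p14, from 250 bases before to 50 bases after a transcription start, and all 4 genes matched, with 6 starts. Capitals mark the letters of motifs searched on both strands. These were the forkhead core TGTTTAC, the E-box CACGTG, the hypoxia response core ACGTG, which overlaps the E-box, the C/EBP-ATF element TGATGNAA, and a pair of CACGNG boxes with a spacer of 5 bases, the form bound by MondoA and MLX.
DDIT4, chr10:72273674-72273973, plus strand: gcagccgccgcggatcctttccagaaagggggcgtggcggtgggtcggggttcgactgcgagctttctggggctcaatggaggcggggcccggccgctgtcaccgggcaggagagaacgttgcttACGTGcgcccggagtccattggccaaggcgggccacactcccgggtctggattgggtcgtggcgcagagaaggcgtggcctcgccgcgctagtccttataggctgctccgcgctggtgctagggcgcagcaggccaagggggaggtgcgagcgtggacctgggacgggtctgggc
CCNG2, chr4:77156957-77157256, plus strand: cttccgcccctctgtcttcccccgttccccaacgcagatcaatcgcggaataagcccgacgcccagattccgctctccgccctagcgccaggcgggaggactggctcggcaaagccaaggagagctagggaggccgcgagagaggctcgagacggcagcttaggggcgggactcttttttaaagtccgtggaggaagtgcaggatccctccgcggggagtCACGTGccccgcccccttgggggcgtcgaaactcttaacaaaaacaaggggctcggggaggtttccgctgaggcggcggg
ARRDC3, chr5:91380048-91380347, minus strand: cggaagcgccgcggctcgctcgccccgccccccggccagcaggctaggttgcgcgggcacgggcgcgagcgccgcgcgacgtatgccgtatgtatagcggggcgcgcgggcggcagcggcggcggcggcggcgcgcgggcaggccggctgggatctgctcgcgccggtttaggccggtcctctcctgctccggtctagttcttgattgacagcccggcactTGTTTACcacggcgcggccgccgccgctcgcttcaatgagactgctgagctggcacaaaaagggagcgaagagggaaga
TXNIP, chr1:145996530-145996829, minus strand: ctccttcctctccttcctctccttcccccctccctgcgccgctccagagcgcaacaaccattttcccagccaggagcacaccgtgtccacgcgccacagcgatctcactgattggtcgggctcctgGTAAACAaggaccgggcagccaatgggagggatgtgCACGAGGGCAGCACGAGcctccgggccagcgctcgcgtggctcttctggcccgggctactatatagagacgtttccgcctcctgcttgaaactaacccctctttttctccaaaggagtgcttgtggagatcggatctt

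The DDIT4 window held ACGTG 125 bases before its start, and 21.4% of all 35116 promoter windows of this length held these letters. In the CCNG2 window CACGTG stood 30 bases before the start, against 7.26% of windows. The forkhead core stood in the ARRDC3 window printed above, 29 bases before the start, and on the reverse strand in the TXNIP window, 124 bases before the start. It was found in 3.42% of all windows. The TXNIP window alone among the 6 held the paired CACGNG boxes, beginning 88 bases before the start, a pair present in 0.057% of windows. TGATGNAA, present in 3.62% of windows, was in none of the 6. A second ARRDC3 start (chr5:91383268-91383567, minus strand) held none of these motifs, and a second TXNIP start (chr1:145995695-145995994, minus strand) held ACGTG only. A match describes letters in this window and not binding, which was not measured.

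DDIT4 was higher with FRAX-597 and lay close to its controls with IPA-3. Its log2 level (probe 16705961) was 8.65 in DMSO 3, 7.92 in DMSO 4, 10.57 in FRAX-597 1 and 10.23 in FRAX-597 2. Both FRAX-597 arrays stood above the other 6 arrays, and the smallest difference between a FRAX-597 array and a DMSO array of its set was 1.58. The group mean went from 8.28 ± 0.52 (SD, n = 2) to 10.40 ± 0.24 (SD, n = 2), a log2 change of 2.12 (SE 0.25) or 4.34-fold, the 6th largest positive change of 14884 genes. In the first set the level was 8.08 in DMSO 1, 8.05 in DMSO 2, 8.37 in IPA-3 1 and 8.06 in IPA-3 2. IPA-3 2 lay between the DMSO arrays and IPA-3 1 above them, so the groups overlapped, with a change of 0.15 (SE 0.25). Without IPA-3 1 that change was -0.0056, and without IPA-3 2 it was 0.30.

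CCNG2 was also higher with FRAX-597, by less than DDIT4. The log2 level of its probe 16968077 was 6.65 in DMSO 3, 6.54 in DMSO 4, 7.88 in FRAX-597 1 and 7.38 in FRAX-597 2. Both FRAX-597 arrays were above all 6 others, with a smallest difference of 0.73 from a DMSO array of their set. The change with FRAX-597 was 1.04 (SE 0.17), or 2.05-fold, from 6.59 ± 0.082 to 7.63 ± 0.36 (SD, n = 2 each), the 88th largest positive change. With IPA-3 the level was 6.61 and 6.57 in the 2 arrays, against 6.73 in DMSO 1 and 6.63 in DMSO 2. Both IPA-3 arrays were lower than both DMSO arrays, by as little as 0.014, and the change was -0.086 (SE 0.17). Its relative CCNG1, cyclin G1, a p53 target, had changes of -0.068 with IPA-3 and 0.059 with FRAX-597 (SE 0.10 each), neither called in limma (adjusted p = 0.941 and 0.987).

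ARRDC3 had a higher mean under both compounds, by a similar amount. Its log2 level (probe 16998059) was 9.21 in DMSO 1, 9.24 in DMSO 2, 10.14 in IPA-3 1 and 10.09 in IPA-3 2. The IPA-3 arrays were clear of their controls by at least 0.85, and the change was 0.90 (SE 0.30), or 1.86-fold, the 53rd largest positive change with IPA-3. In the second set it was 9.84 in DMSO 3, 9.0 in DMSO 4, 10.52 in FRAX-597 1 and 9.81 in FRAX-597 2. FRAX-597 2 fell 0.033 short of DMSO 3, so these groups overlapped, and the mean change was 0.74 (SE 0.30), or 1.68-fold. That value moved with single arrays, being 1.16 without DMSO 3, 0.32 without DMSO 4, 0.39 without FRAX-597 1 and 1.10 without FRAX-597 2. The standard error for IPA-3 also contains the spread of the second set, where the SD was 0.59 in DMSO and 0.51 in FRAX-597, against 0.022 and 0.040 in the first set. In turn, the FRAX-597 standard errors of ARRDC3, DDIT4 and CCNG2 contain the smaller spread of the first set. There the SDs in DMSO and IPA-3 were 0.022 and 0.22 for DDIT4, and 0.074 and 0.028 for CCNG2. These FRAX-597 errors therefore do not show the spread of the second set alone. ARRDC3-AS1, a noncoding RNA named as antisense to ARRDC3, had changes of -0.26 (SE 0.15) with IPA-3 and 0.091 (SE 0.15) with FRAX-597, neither called in limma (adjusted p = 0.756 and 0.982).

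TXNIP lay near its controls with FRAX-597 and somewhat below them with IPA-3. Its brighter probe, 16669796, was at the 97.8th percentile of all probes or higher in every array. It stood at 11.16 in DMSO 1, 11.22 in DMSO 2, 11.04 in IPA-3 1 and 10.79 in IPA-3 2, so both IPA-3 arrays were lower than both DMSO arrays, by at least 0.13. The change with IPA-3 was -0.28 (SE 0.12), which was -0.40 without IPA-3 1 and -0.15 without IPA-3 2. In the second set it read 10.83 in DMSO 3, 10.74 in DMSO 4, 10.87 in FRAX-597 1 and 10.79 in FRAX-597 2. These 4 values interleaved, and the change was 0.046 (SE 0.12). The second probe, 17117443, stood at 7.84 in DMSO 1, 7.80 in DMSO 2, 7.83 in IPA-3 1 and 7.52 in IPA-3 2, which gave -0.15 (SE 0.36). It read 8.04 in DMSO 3, 7.19 in DMSO 4, 8.18 in FRAX-597 1 and 7.21 in FRAX-597 2, a change of 0.079 (SE 0.36). The probes therefore gave changes of the same sign, but the second varied by 0.85 between DMSO 3 and DMSO 4, where the first varied by 0.098.

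**Figure D1:**
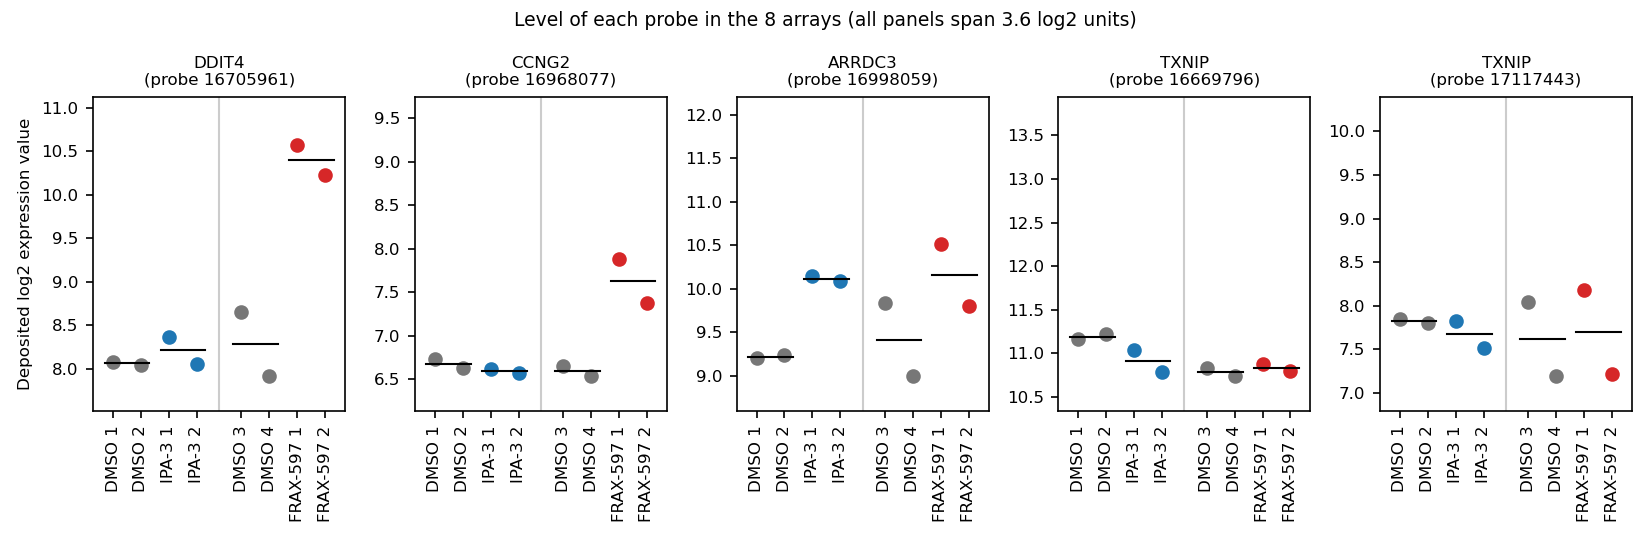
Deposited log2 expression value (vertical axis) of each of the 5 probes in the 8 arrays (horizontal axis, grey DMSO, blue IPA-3, red FRAX-597). Black lines are group means of 2 arrays, the grey vertical line separates the array sets, and every panel spans the same log2 range. Both FRAX-597 arrays are above all other arrays for DDIT4 and CCNG2, both IPA-3 arrays are above DMSO 1 and 2 for ARRDC3, and TXNIP shows no such separation upwards.

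The 4 genes did not share one pattern. With FRAX-597, 2 of 4 (DDIT4 and CCNG2) had both compound arrays above both controls, which 13.0% of all genes did. With IPA-3 it was 1 of 4 (ARRDC3), against 19.3% of all genes, while CCNG2 and TXNIP had both arrays below, as 28.3% of all genes did. The genes were chosen on these same comparisons, so nothing is read from these counts. The median change over all genes was -0.018 with FRAX-597 and -0.023 with IPA-3. The FRAX-597 change minus the IPA-3 change was 1.97 for DDIT4, 1.12 for CCNG2, 0.32 for TXNIP and -0.15 for ARRDC3. The compounds were given at different doses in cells of different array sets, so these values stand side by side and were not tested.

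The paralogues differed from gene to gene. DDIT4L, which like DDIT4 inhibits mTORC1, had a change of -0.18 (SE 0.16) with FRAX-597 and 0.40 (SE 0.16) with IPA-3, the opposite order to DDIT4. Neither DDIT4L change was called (limma adjusted p = 0.905 and 0.664). DDIT4L read only 5.51 in DMSO 1 and 5.41 in DMSO 2, near the median of 5.51 over all probes in each array. ARRDC4 read 9.47 in DMSO 1, 9.46 in DMSO 2, 10.54 in IPA-3 1 and 10.54 in IPA-3 2. Both IPA-3 arrays were thus above their controls by 1.07 or more, as for ARRDC3. Its IPA-3 change was 1.08 (SE 0.42, limma adjusted p = 0.66), and it was called when the first set was fitted alone (limma adjusted p = 0.0178). In the second set ARRDC4 read 9.61 in DMSO 3, 8.80 in DMSO 4, 10.04 in FRAX-597 1 and 8.68 in FRAX-597 2, with a change of 0.16 (SE 0.42, limma adjusted p = 0.998) that was -0.52 without FRAX-597 1 and 0.84 without FRAX-597 2. ARRDC2 had changes of 0.072 with IPA-3 and 0.38 with FRAX-597 (SE 0.26 each), ARRDC1 of -0.14 and -0.018 (SE 0.12 each), and ARRDC5 of -0.27 and -0.056 (SE 0.17 each). Of the 7 other measured arrestin family genes, 0 were called with either compound in limma at an adjusted p under 0.05. An unadjusted p under 0.05 was found for 1 (ARRDC4) with IPA-3 and 0 with FRAX-597.

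**Figure D2:**
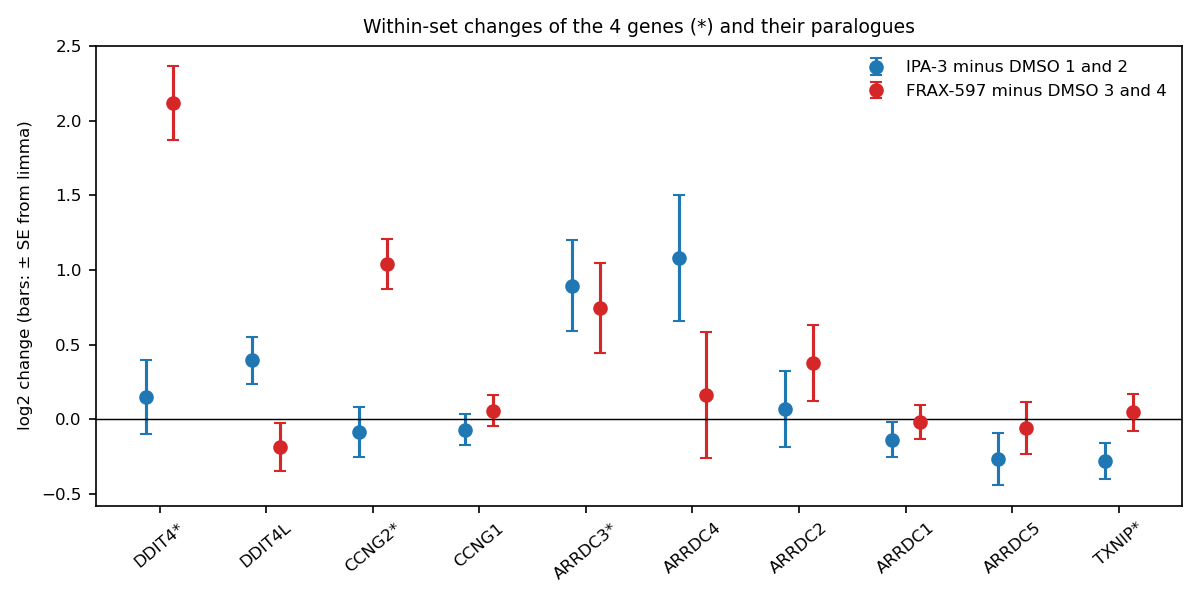
log2 change (vertical axis) with IPA-3 against DMSO 1 and 2 (blue) and with FRAX-597 against DMSO 3 and 4 (red) for the 4 genes, marked with an asterisk, and their measured paralogues (horizontal axis). Bars are ± 1 SE from limma over 2 arrays against 2. DDIT4 and CCNG2 stand high in red alone, ARRDC3 in both colours and ARRDC4 in blue alone, and TXNIP lies near 0 in red and below 0 in blue.

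In solvent alone, after centring, 2 of the 4 genes (TXNIP and CCNG2) were called different between the array sets, and the CCNG2 call was lost in several alternatives. Here each array was centred on its median over all probes, because the uncentred values of DMSO 3 and 4 were higher by a median of 0.48 over all genes. Without centring, DMSO 3 and 4 minus DMSO 1 and 2 was -0.41 for TXNIP (brighter probe), -0.085 for CCNG2, 0.22 for DDIT4 and 0.20 for ARRDC3. The size of the centred differences thus depends on the centring. After centring, TXNIP was lower in DMSO 3 and 4 than in DMSO 1 and 2, at 4.75 against 5.68 above the array median, a difference of -0.93 (SE 0.13, limma adjusted p = 0.00269). CCNG2 was lower by -0.61 (0.56 against 1.17, SE 0.18, limma adjusted p = 0.0374), DDIT4 differed by -0.31 (SE 0.26, limma adjusted p = 0.395) and ARRDC3 by -0.33 (SE 0.31, limma adjusted p = 0.458). Over all genes 18.7% were called lower and 11.6% higher in this comparison (2789 and 1725 genes), so a call is common here. With quantile normalization the split was 1970 lower and 2241 higher, TXNIP kept its call (-0.50, limma adjusted p = 0.0152) and CCNG2 missed the threshold (-0.56, limma adjusted p = 0.0532). CCNG2 also missed it without any 1 of the DMSO or IPA-3 arrays (limma adjusted p 0.066 to 0.169), and the second TXNIP probe did not reach it (-0.73, SE 0.37, limma adjusted p = 0.177). Array set, culture and processing cannot be told apart here. Both pairs were also controls in the comparisons the genes were chosen on, so these p-values are not independent of the choice.

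ARRDC3 differed more between arrays of one group in the second set than in the first. DMSO 3 exceeded DMSO 4 by 0.84 for ARRDC3, 0.74 for DDIT4 and 0.12 for CCNG2, and FRAX-597 1 exceeded FRAX-597 2 by 0.72, 0.35 and 0.50 for the same genes. The corresponding differences between DMSO 1 and DMSO 2 were -0.031, 0.032 and 0.10, and between the IPA-3 arrays 0.057, 0.31 and 0.04, for ARRDC3, DDIT4 and CCNG2. The brighter TXNIP probe differed by 0.098 between DMSO 3 and DMSO 4, against -0.0525 between DMSO 1 and DMSO 2. Between the FRAX-597 arrays it differed by 0.081, against 0.25 between the IPA-3 arrays. For the second TXNIP probe the DMSO differences were 0.85 in the second set and 0.045 in the first. Its compound arrays differed by 0.97 with FRAX-597 and 0.31 with IPA-3. With each array centred on its median, DMSO 4 stood apart from the other 3 DMSO arrays for DDIT4, at 1.87 against 2.54 to 2.62, and for ARRDC3, at 2.95 against 3.69 to 3.81. Without DMSO 4 the FRAX-597 change was 1.75 for DDIT4 and 0.32 for ARRDC3. For every member probe DMSO 3 was above DMSO 4 and FRAX-597 1 was above FRAX-597 2. The labels pair no arrays, so whether this spread runs in pairs of 1 DMSO and 1 FRAX-597 array was not tested. The part of this spread in the FRAX-597 changes was not tested either.

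Genes of the same pathways were then counted, with the 4 members left out of every list. In the fit over all genes limma called 23 genes for FRAX-597 (0.155% of genes, with 0.121% higher and 0.0336% lower) and 5 for IPA-3 (0.0336%, with 0.0269% higher and 0.00672% lower). An unadjusted p under 0.05 was reached upwards by 4.04% of all genes with FRAX-597 and by 3.10% with IPA-3, and downwards by 3.61% and 4.11%.

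Among the brakes on mTORC1, the group to which DDIT4 belongs, SESN2 had the largest change with FRAX-597. SESN2, a sestrin induced by ATF4 and p53 that holds mTORC1 off when leucine is low, read 8.54 in DMSO 3, 7.76 in DMSO 4, 10.58 in FRAX-597 1 and 9.07 in FRAX-597 2. Both FRAX-597 arrays were above their controls and the change was 1.67 (SE 0.45, limma adjusted p = 0.355). It ranged from 0.92 to 2.43 for SESN2 when 1 array was left out. Of 18 measured mTORC1 brakes, 0 were called with FRAX-597, 1 (SESN2) had an unadjusted p under 0.05, and the median change was -0.047. Both FRAX-597 arrays were above both controls for 4 of these, against 13.0% of all genes, and below both for 3. With IPA-3 0 were called, and 1 was higher and 3 were lower at an unadjusted p under 0.05. Those lower included DEPTOR, an inhibitory subunit of mTOR complexes (-0.48, SE 0.12, limma adjusted p = 0.526), and DEPDC5, of the GATOR1 complex (-0.43, SE 0.13, limma adjusted p = 0.55). The 16 measured mTORC1 core and activator genes had 0 called and 0 at an unadjusted p under 0.05 with either compound.

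ATF4 is a known inducer of DDIT4, and the list of ATF4 and integrated stress response genes had mostly positive changes with FRAX-597. Of 23 measured genes 22 were above 0, against 45.3% of all genes, 18 had both FRAX-597 arrays above both controls, against 13.0% of all genes, and the median change was 0.82. The list had 0 genes called over all genes and 17 at an unadjusted p under 0.05, and without FRAX-597 2 it had 12 called, where 227 of all genes were called. AARS1, which charges tRNA with alanine, differed by 0.85 (SE 0.12, limma adjusted p = 0.0573) and PHGDH, the first enzyme of serine synthesis, by 0.82 (SE 0.11, limma adjusted p = 0.0614). For ATF4 itself the FRAX-597 difference was 0.57 (SE 0.10, limma adjusted p = 0.191) and the IPA-3 difference 0.39 (SE 0.10, limma adjusted p = 0.526). With IPA-3, 16 of the 23 were above 0, against 44.4% of all genes, with a median of 0.20, 0 called and an unadjusted p under 0.05 in 3, all of them higher. The list was written with earlier results of these data known and is no independent evidence of its direction.

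FOXO targets, the class to which CCNG2 belongs, lay on both sides of 0. Of 25 measured genes other than the members, 15 were above 0 with FRAX-597, against 45.3% of all genes, with a median of 0.14. Both FRAX-597 arrays were above both controls for 9, against 13.0% of all genes. They were below both for 2, against 2648 of all 14884 genes. In this list 0 were called, and 2 were higher and 2 lower at an unadjusted p under 0.05. This list too was written with earlier results of these data known. KLHL24, an E3 ligase adaptor, read 6.07 in DMSO 3, 6.27 in DMSO 4, 7.28 in FRAX-597 1 and 6.70 in FRAX-597 2, a change of 0.82 (SE 0.19, limma adjusted p = 0.249). FOXO1 differed by 0.31 (SE 0.11, limma adjusted p = 0.512), and INSR, the insulin receptor, by -0.36 (SE 0.14, limma adjusted p = 0.606). With IPA-3, 11 of 25 were above 0, against 44.4% of all genes, and the median was -0.12. There 0 were called, with 0 higher and 1 lower (INSR, -0.50, SE 0.14, limma adjusted p = 0.527) at an unadjusted p under 0.05.

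Brakes on PI3K and AKT signalling held several genes with higher values under FRAX-597. Of 12 measured, 0 were called, 4 were higher and 1 lower at an unadjusted p under 0.05, and the median was 0.087. Both FRAX-597 arrays were above both controls for 5, against 13.0% of all genes, and below both for 1. TRIB3, a pseudokinase that binds AKT and is an ATF4 target, differed by 2.05 (SE 0.30, limma adjusted p = 0.0694). GRB10, an adaptor that dampens insulin receptor signalling, differed by 1.03 (SE 0.18, limma adjusted p = 0.157), and SOCS3, an inhibitor of cytokine receptor signalling, by 0.85 (SE 0.15, limma adjusted p = 0.163). With IPA-3 0 were called and 1 reached an unadjusted p under 0.05. That was TRIB2, another pseudokinase of the TRIB3 family, at 0.62 (SE 0.15, limma adjusted p = 0.518).

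The MondoA and glucose-sensing list, which bears on TXNIP, had 0 of 15 genes called with either compound. Its median change was 0.039 with FRAX-597 and -0.12 with IPA-3. Both FRAX-597 arrays were above both controls for 4 of the 15, against 13.0% of all genes, and below both for 0. At an unadjusted p under 0.05, MXD1, a repressor that competes with MYC for MAX (1.12, SE 0.23, limma adjusted p = 0.203), and KLF10 (0.59, SE 0.22, limma adjusted p = 0.574, 0.25 to 0.94 with 1 array left out) were higher with FRAX-597, and ARRDC4 with IPA-3. Of 19 thioredoxin system genes, SRXN1, sulfiredoxin, rose with IPA-3 (log2 change 1.94, SE 0.14, limma adjusted p = 0.0108) and 0 were called with FRAX-597, where 1 was higher at an unadjusted p under 0.05. The SRXN1 call was lost when any 1 of the first-set arrays was left out (limma adjusted p 0.189 to 0.334) and with the 4 DMSO arrays pooled (limma adjusted p = 0.546). TXNRD1, which reduces the thioredoxin that TXNIP binds, had a change of 0.96 with IPA-3 (SE 0.14, limma adjusted p = 0.18), where 2 genes were higher and 2 lower at an unadjusted p under 0.05. TXNRD1 was called when the first set was fitted alone (limma adjusted p = 0.0248).

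Of 18 hypoxia genes, VEGFA rose with FRAX-597 (2.05, SE 0.24, limma adjusted p = 0.032) and the median was 0.064. The VEGFA call was lost with the second set fitted alone (limma adjusted p = 0.79), with pooled DMSO arrays (limma adjusted p = 0.181) and without any 1 array other than DMSO 4 or FRAX-597 2 (limma adjusted p 0.0548 to 0.163). With IPA-3 0 hypoxia genes were called, and 1 was higher and 1 lower at an unadjusted p under 0.05. Antiproliferative genes and G cyclins (12 measured), p53 targets (16) and glucocorticoid receptor targets (14) each had 0 called with either compound. Their medians with FRAX-597 were 0.061, 0.069 and 0.27. In the same order 7, 10 and 13 genes were above 0 with FRAX-597, against 45.3% of all genes. Both FRAX-597 arrays were above both controls for 3, 5 and 3 genes, against 13.0% of all genes. At an unadjusted p under 0.05 the counts with FRAX-597 were 1, 3 and 2 higher and 0 lower in each list. With IPA-3 they were 0, 0 and 2 higher and 0, 1 and 1 lower in limma.

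Genes that growth factors keep on were examined next, MYC among them. MYC differed by -0.87 (SE 0.15, limma adjusted p = 0.132) with FRAX-597 and by -0.18 (SE 0.15, limma adjusted p = 0.841) with IPA-3. EGR1, an immediate early factor downstream of ERK, had changes of -0.70 (limma adjusted p = 0.241) with FRAX-597 and -0.96 (limma adjusted p = 0.256) with IPA-3, with an SE of 0.16 each. CCNE1, cyclin E1, had one of -0.91 (SE 0.26, limma adjusted p = 0.398) and CDC25A, a phosphatase that activates cyclin-dependent kinases, one of -0.78 (SE 0.21, limma adjusted p = 0.363) with FRAX-597. With 1 array left out, the CCNE1 value ranged from -1.30 to -0.52 and the CDC25A value from -1.10 to -0.46. EGR1 was called with IPA-3 when the first set was fitted alone (limma adjusted p = 0.0233). The list of MYC, its cofactors and G1 cyclins had 2 of 12 genes above 0 with FRAX-597 and a median of -0.18. The ERK output list had 10 of 18 above 0 and a median of 0.089, where 45.3% of all genes were above 0. Both lists had 0 genes called in limma with either compound. At an unadjusted p under 0.05, the first had 3 lower with FRAX-597 and 0 with IPA-3. The ERK list had 1 higher and 3 lower with FRAX-597, and 3 higher and 3 lower with IPA-3. The 10 measured PI3K and AKT kinases and receptors and the 10 arrestin partners and ubiquitin ligases also had 0 called with either compound. Of the former, 1 was higher and 2 lower with IPA-3 and 1 lower with FRAX-597 at an unadjusted p under 0.05, and of the latter 1 was lower with IPA-3 and 0 passed with FRAX-597.

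**Figure D3:**
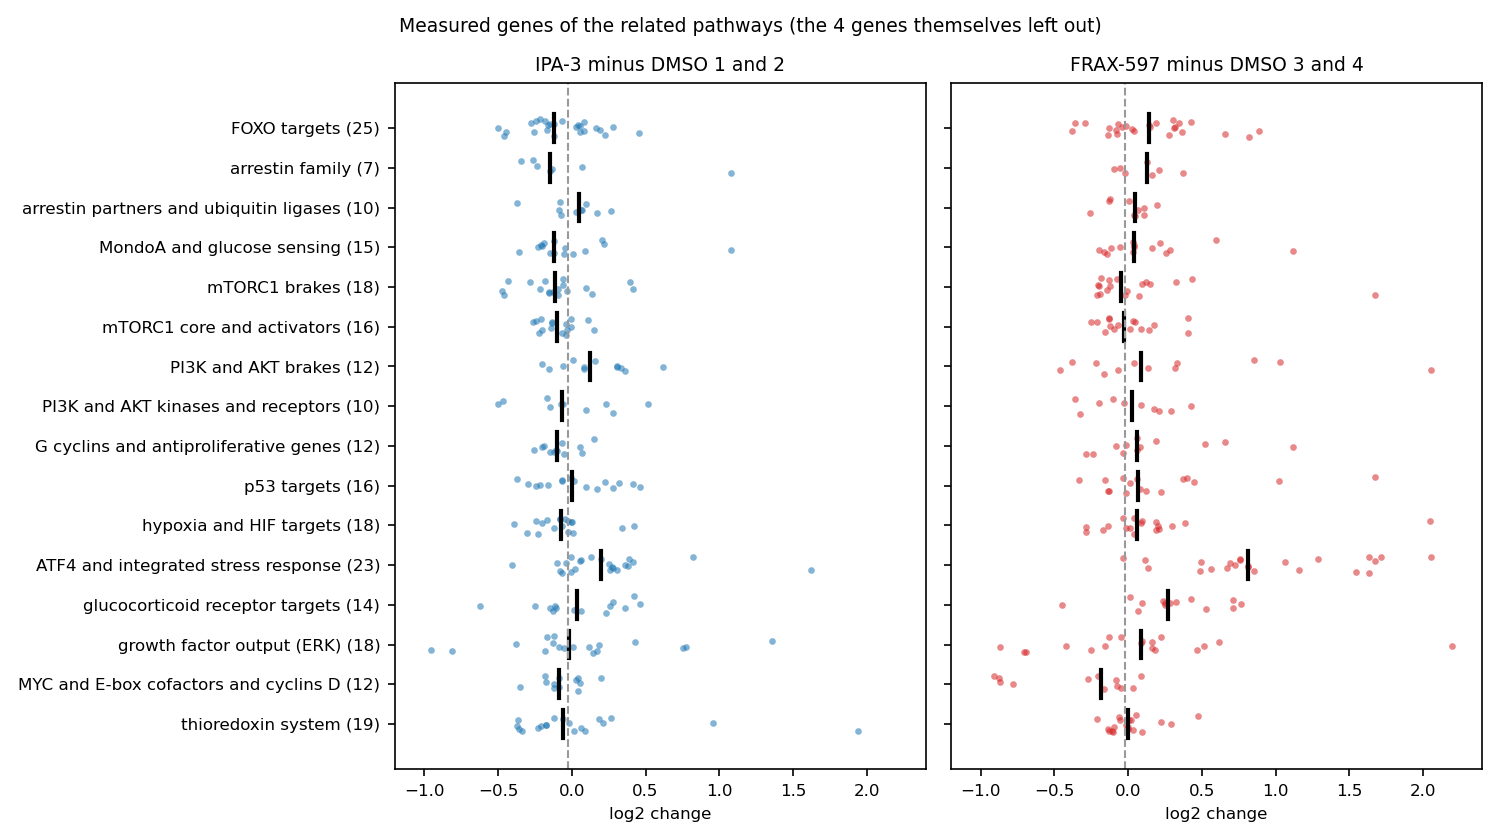
log2 change of each measured gene (points) in 16 pathway lists (rows, number of genes in brackets) with IPA-3 against DMSO 1 and 2 (left) and FRAX-597 against DMSO 3 and 4 (right). Black ticks are list medians and dashed lines the median of all genes, near 0. The ATF4 list stands to the right with FRAX-597, with a median of 0.82, and most other list medians lie near the dashed line.

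The genes most like each member were found by the root mean square difference over the 8 arrays, after the mean of the own-set DMSO arrays was subtracted from each array. For DDIT4 they were the T-box factor TBX15 (0.20), TRIB3 (0.24) and AVPI1 (0.27), against a median of 1.10 over all genes eligible for the match. For CCNG2 they were TTC39B (0.097), MXD1 (0.10) and CFLAR (0.11), the last an inhibitor of caspase-8 activation (median 0.57). ARRDC3 was matched by TEAD1, a DNA-binding partner of YAP (0.18), the ubiquitin ligase FBXO30 (0.20) and G0S2, an inhibitor of adipose triglyceride lipase (0.21), with a median of 0.67. PMPCB, TYROBP and CYB5B were nearest to TXNIP (0.032, 0.036 and 0.037), where the median of all genes was 0.21. TBX15 and AVPI1 had FRAX-597 changes of 2.08 and 1.92 and IPA-3 changes of -0.17 and -0.0076. FBXO30 and G0S2 had IPA-3 changes of 0.91 and 0.96. This likeness is a description over 8 arrays that share the same DMSO controls.

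**Figure D4:**
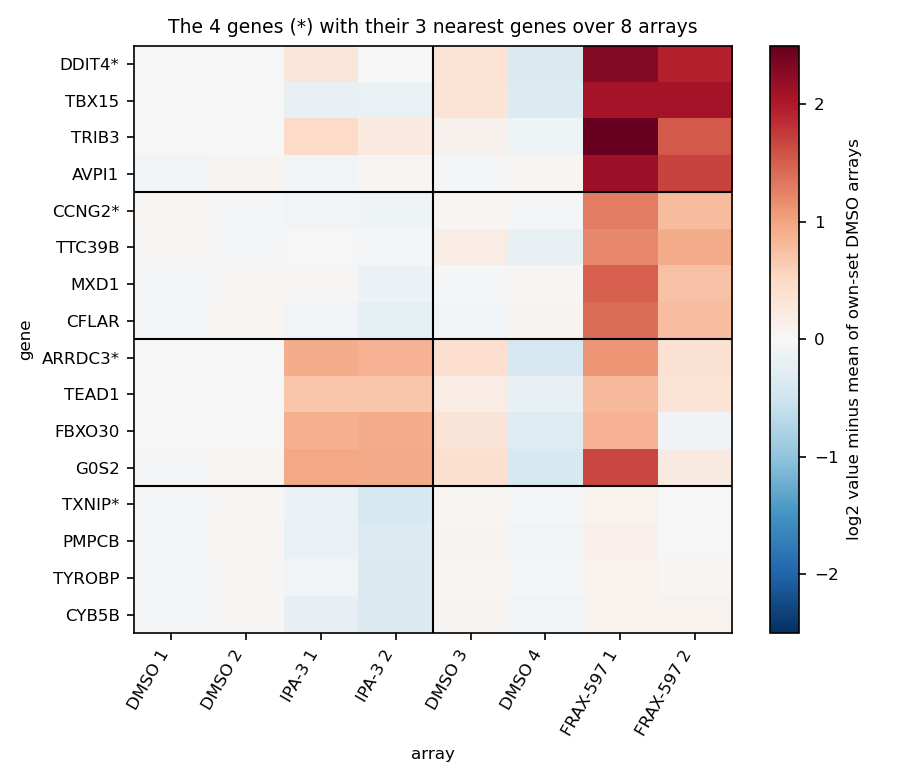
Deposited log2 value minus the mean of the own-set DMSO arrays (colour, blue below 0 and red above) in the 8 arrays (columns) for the 4 genes, marked with an asterisk, and the 3 genes nearest to each (rows). The DDIT4 and CCNG2 blocks are deepest red in the FRAX-597 columns, the ARRDC3 block is red in the IPA-3 columns and paler in FRAX-597 2 than in FRAX-597 1, and the TXNIP block is near 0 except for a pale blue in the IPA-3 columns.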

How the data were processed

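Total RNA from 8 THP-1 samples was hybridised to 1-colour Affymetrix whole-transcript arrays. The deposited values are log2 expression, made by the authors with Affymetrix Expression Console and Transcriptome Analysis Console, per the submitters' processing notes. Normalization and versions: not given in the sources used here. Of the probes, the platform annotation named 16098 of 53617 probes, 0 with several genes, and all 16098 gene IDs matched RefSeq. The probe with the highest mean stood for a gene, leaving 14884 genes, 779 of them with several probes. One limma fit (version 3.58.1, R 4.3.3, lmFit and eBayes) of 4 groups (DMSO 1 and 2, IPA-3, DMSO 3 and 4, FRAX-597) covered all 8 arrays, with Benjamini-Hochberg adjustment over all genes and a threshold of 0.05. The groups shared a common spread per gene, so each standard error draws on both array sets. The procedure was tested on simulated data. The members, lists and fits were chosen with earlier results of these data known. Named genes were the members, their paralogues, the 3 genes per list with the smallest p (of which the text names some), and the 3 nearest genes per member. Arrays have no read depth, so their number limits the precision. Alternatives changed the controls, the arrays fitted, the normalization, the probe rule and a filter on low values, and left out each array. PAK1 is not analysed here.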

Additional observations from a re-analysis of the deposited data

Results flagged for a closer look

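In 7 of 51 genes and probes examined, 1 of the 4 DMSO arrays stood apart from the other 3, by Dixon's 95% critical value for 4 samples. For 4 draws from a single population, chance marks about 1 in 20 groups in this way. The DMSO arrays come from both array sets and the genes were picked, so that rate cannot be set against this count. Each array was first centred on its median over all probes, a choice made after seeing the data, since uncentred values pool arrays on different scales. DMSO 4 was low for DDIT4 (1.87 above the array median, a gap of 0.886 of the whole range) and for ARRDC3 (2.95, a gap of 0.862). DMSO 3 was high for SESN2 (2.51, a gap of 0.873), KLF10 (4.27, a gap of 0.838) and EGR3 (1.24, a gap of 0.836). DMSO 1 was low for CCNG1 (3.91, a gap of 0.884) and DMSO 2 high for DEPDC5 (2.28, a gap of 0.929), where the whole range was narrow.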

How the results depend on the processing

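The FRAX-597 changes of DDIT4, CCNG2 and ARRDC3 and the IPA-3 change of ARRDC3 kept their sign in every alternative run. Over single arrays left out, the FRAX-597 changes ranged from 1.75 to 2.48 for DDIT4, 0.79 to 1.29 for CCNG2, 0.32 to 1.16 for ARRDC3 and -0.0024 to 0.095 for TXNIP. The IPA-3 changes ranged from -0.0056 to 0.30, -0.14 to -0.034, 0.87 to 0.92 and -0.40 to -0.15 in the same order. With the 4 DMSO arrays pooled, TXNIP had changes of -0.076 with IPA-3 and -0.16 with FRAX-597. Against the DMSO pair of the other set, after median centring, the IPA-3 changes were 0.43 for DDIT4, 0.50 for CCNG2, 0.63 for TXNIP and 1.20 for ARRDC3. The FRAX-597 changes there were 1.83, 0.44, -0.87 and 0.43. That alternative crosses the array sets by construction. It turned the sign of 29 of 100 changes of named genes, 3 of them of members (CCNG2 and TXNIP with IPA-3, TXNIP with FRAX-597). Those called there were IPA-3 changes for KLHL24 (0.84), MYC (0.52), PAK4 (-0.47) and TYROBP (1.09) and of FRAX-597 changes for FOSL1 (0.48), TXNRD1 (-0.98), ARRDC3-AS1 (-0.50) and TYROBP (-1.25).

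Genes called for IPA-3 numbered 0 with pooled DMSO arrays, 4508 against the other DMSO pair, 96 with the first set alone, 2 with quantile normalization, 2 with low genes left out, and 0 to 24 without 1 array. For FRAX-597 they numbered 5, 4975 and 0 in the first 3 of these and 2 to 227 without 1 array. Between the DMSO pairs, without 1 array, 1676 to 5192 genes were called, and the differences ranged from -0.99 to -0.87 for TXNIP, -0.68 to -0.54 for CCNG2, -0.68 to 0.072 for DDIT4 and -0.76 to 0.10 for ARRDC3. DDIT4 (0.072) and ARRDC3 (0.10) turned their sign without DMSO 4, and CCNG2 was not called with quantile normalization (-0.56). The causes of these differences were not tested. No paired analysis was run, because the titles give the IPA-3 and FRAX-597 arrays no replicate number that a DMSO array shares. A pairing of the second-set arrays would rest on the measured values themselves.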

Other observations

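Of the PAK genes, PAK2, PAK4 and PAK5 were among the named probes. PAK2 had changes of 0.051 with IPA-3 and 0.089 with FRAX-597 (SE 0.11 each), and PAK4 had changes of 0.16 and 0.050 (SE 0.14 each). PAK5 had changes of -0.19 and 0.14 (SE 0.24 each). None of the 3 was called in limma with either compound (adjusted p 0.857 to 0.998). Among inducers and relatives of the members chosen for their list, ULBP1, a stress-induced ligand of natural killer cells, had changes of 1.62 with IPA-3 and 1.71 with FRAX-597 (SE 0.56 each), and ASNS, asparagine synthetase, of 0.82 and 1.29 (SE 0.29 each). In both genes each compound array was above the DMSO arrays of its own set, as ARRDC3 was for IPA-3, and neither was called (limma adjusted p 0.237 to 0.625). With the first set fitted alone both were called for IPA-3, ULBP1 at a limma adjusted p of 0.0342 and ASNS at 0.0307. With 1 array left out, the FRAX-597 change ranged from 0.87 to 2.55 for ULBP1 and 0.82 to 1.76 for ASNS. FOSL1, an ERK-induced AP-1 factor, had a change of 0.77 with IPA-3 (SE 0.14, limma adjusted p = 0.257) and -0.25 with FRAX-597 (SE 0.14, limma adjusted p = 0.778).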
